A study of Mus musculus with 10 samples.

Results

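Lysosomal hydrolases and membrane proteins were read in the livers of mice carrying pancreatic tumours, as a module of 34 genes picked by symbol from the 24972 gene symbols in the deposited table. The module was divided by role into 11 cathepsins, 8 glycosidases, 6 membrane proteins, 5 lipid hydrolases and lipid-handling proteins, and 4 other members, which are a peptidase, a transcription factor, an autophagy receptor and progranulin. All 34 symbols were found, and all 34 passed the filter, a mean of at least 10 over the 10 libraries.

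RNA of whole liver was counted at the 3′ ends of transcripts in 10 libraries. The 4 T cell-low livers came from mice bearing tumours of the line 6419c1. Mice with tumours of the line 6555c3 gave the 6 T cell-high livers. Both lines derive from KPC mice, a genetic model of pancreatic ductal adenocarcinoma, and the class names describe how many T cells the tumours of a line hold. The hosts of both groups are labelled WT, and the sources used here name neither strain, sex and age nor the site of the tumours. Each class is 1 clonal line, so a difference between T cell-low and T cell-high cannot be told apart from a difference between the 2 lines. The labels do not say that each library is its own mouse, so the p-values cover only the spread from library to library, part of which may be technical.

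The lysosome is the acidic compartment in which cells break down protein, glycan and lipid. Its soluble enzymes are made in the endoplasmic reticulum and mostly carried there by mannose 6-phosphate receptors. Glycosylated membrane proteins line it, and a proton pump, the V-ATPase, acidifies it. Many of its genes share a short promoter element, CLEAR, bound by the transcription factor TFEB and its relatives, which enter the nucleus when the kinase complex mTORC1 is inactive. In liver, lysosomes serve autophagy in hepatocytes and the digestion of captured material in Kupffer cells, the resident macrophages.

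Because TFEB and the CLEAR element are known to control many lysosomal genes, the promoters of the members were searched first. The RefSeq table for GRCm38.p6 held 34 windows for 30 of the 34 members, each of 300 bases around an annotated start, and none for Asah1, Ctsb, Ctsh and Npc1. The annotated start need not be the outermost one. The only windows of Ctsl, Cd63 and Scarb2 lie wholly inside the gene positions used here, so the sequence before the outermost start was not searched for them. The full CLEAR palindrome, TCACGTGA with G before it and C after it, was in 0 of the members' windows and in 107 of all 32851 windows (0.326%). The 8 letters TCACGTGA were in 4 of the members' windows (11.8%), those of Ctsa, Ctsd, Gla and Mcoln1, and in 0.974% of all windows. The innermost 6 letters, CACGTG, were in 10 of the members' windows (29.4%) and in 7.15% of all windows. Each of the 3 motifs is its own reverse complement, so both strands were read at once, and a match to a longer motif is also a match to the shorter ones. The windows of 4 genes are shown, of which Lamp1 holds the motif 4 times, Ctsl once, and Ctsj and Grn, whose RNA was higher in T cell-low livers, not at all. Capitals mark CACGTG, and each window runs 5′ to 3′ along the gene's own strand.
Lamp1, chr8:13158911-13159210, plus strand: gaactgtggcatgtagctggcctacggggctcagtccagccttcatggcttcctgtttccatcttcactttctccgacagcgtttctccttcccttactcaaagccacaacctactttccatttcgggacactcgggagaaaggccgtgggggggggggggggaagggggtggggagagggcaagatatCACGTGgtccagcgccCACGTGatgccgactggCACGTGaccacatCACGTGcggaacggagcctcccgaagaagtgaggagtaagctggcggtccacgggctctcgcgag
Ctsl, chr13:64370471-64370770, minus strand: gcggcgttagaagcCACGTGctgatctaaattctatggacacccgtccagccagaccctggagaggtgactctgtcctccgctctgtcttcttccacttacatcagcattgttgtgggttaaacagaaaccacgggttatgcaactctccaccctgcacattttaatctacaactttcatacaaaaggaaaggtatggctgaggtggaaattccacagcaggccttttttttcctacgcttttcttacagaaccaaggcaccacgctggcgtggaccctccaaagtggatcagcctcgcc
Grn, chr11:102430257-102430556, plus strand: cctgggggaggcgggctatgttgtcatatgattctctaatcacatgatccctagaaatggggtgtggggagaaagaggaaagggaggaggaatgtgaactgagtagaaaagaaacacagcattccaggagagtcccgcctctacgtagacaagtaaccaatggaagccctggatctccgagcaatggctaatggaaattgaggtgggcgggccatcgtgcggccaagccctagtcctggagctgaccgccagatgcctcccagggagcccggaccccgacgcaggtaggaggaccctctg
Ctsj, chr13:61005876-61006175, minus strand: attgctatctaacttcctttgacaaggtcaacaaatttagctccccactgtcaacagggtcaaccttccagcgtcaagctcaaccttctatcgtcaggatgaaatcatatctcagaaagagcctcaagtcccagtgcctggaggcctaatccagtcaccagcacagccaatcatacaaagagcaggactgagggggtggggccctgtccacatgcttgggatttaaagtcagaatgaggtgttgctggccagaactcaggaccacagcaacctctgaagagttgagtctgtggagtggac
A match is only a match of letters, and a window without one says nothing about the factor.

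The deposited values are gene counts that the authors scaled between libraries, called scaled counts here. Their sums ran from 7060777 to 8257373 in T cell-low and from 7000659 to 7513620 in T cell-high libraries. A log2 fold change is T cell-low minus T cell-high of log2(scaled count + 1), with its standard error (SE). Adjusted p is from limma's moderated test, two-sided, with Benjamini-Hochberg adjustment over all 11110 genes tested, and a gene is said to have risen or fallen where adjusted p was below 0.05. Hepatocyte markers took 8.0 to 10.1% of the scaled total in T cell-low livers, against 5.80 to 9.54% in T cell-high libraries, with none listed at 0 throughout. The libraries did not all go with their class. T cell-low 1 correlated less with the other T cell-low libraries (mean r over genes 0.861) than with the T cell-high ones (0.936), and T cell-high 1, 3, 5 and 6 stood apart from the other 6 libraries in 98 genes, with a gap of 1 log2 unit or more between the nearest values. By the same measure T cell-low 2, 3 and 4 stood apart from the other 7 libraries in 316 genes, among them 1 member, Ctsj. Without the 4 T cell-high libraries limma called 0 genes, with 1027 at an unadjusted p below 0.05, against 1420 called and 3830 with them. The 4 were picked after seeing the data. That fit keeps only T cell-high 2 and 4, which of the T cell-high libraries correlated most with the T cell-low ones (0.882 and 0.885). It has less power, so a lost call there is not read as a result about the 4 libraries.

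Of the 34 members, 5 passed the test. Ctsj and Grn rose in T cell-low livers, and Ctsc, Lipa and Gm2a fell. That is 14.7% of the members, beside 12.8% of all genes tested, of which 5.39% were higher and 7.39% lower. Ctsj passed the filter on low values only through the T cell-low libraries, and without it 4 of 33 members were called (12.1%). The share of members called was thus near that of genes at large. The fold changes had a median of 0.00 over the 33 members other than Ctsj, beside 0.00 over all genes, and 18 of the 34 were positive and 16 negative. At an unadjusted p below 0.05 there were 12 of the 34 members, beside 3830 of the 11110 genes tested. Counts at that p in the classes and lists below have the same background. The module took 0.533 to 0.635% of the scaled total in T cell-low livers, against 0.536 to 0.629% in T cell-high libraries, so the ranges of its summed level overlapped. Without T cell-high 1, 3, 5 and 6 limma called 0 members, with 4 at an unadjusted p below 0.05. With fewer libraries that fit has less power, so the loss of calls alone does not show a smaller difference. In bulk tissue, fewer cells of a type and less RNA per cell cannot be told apart, for any value that follows.

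**Figure D1:**
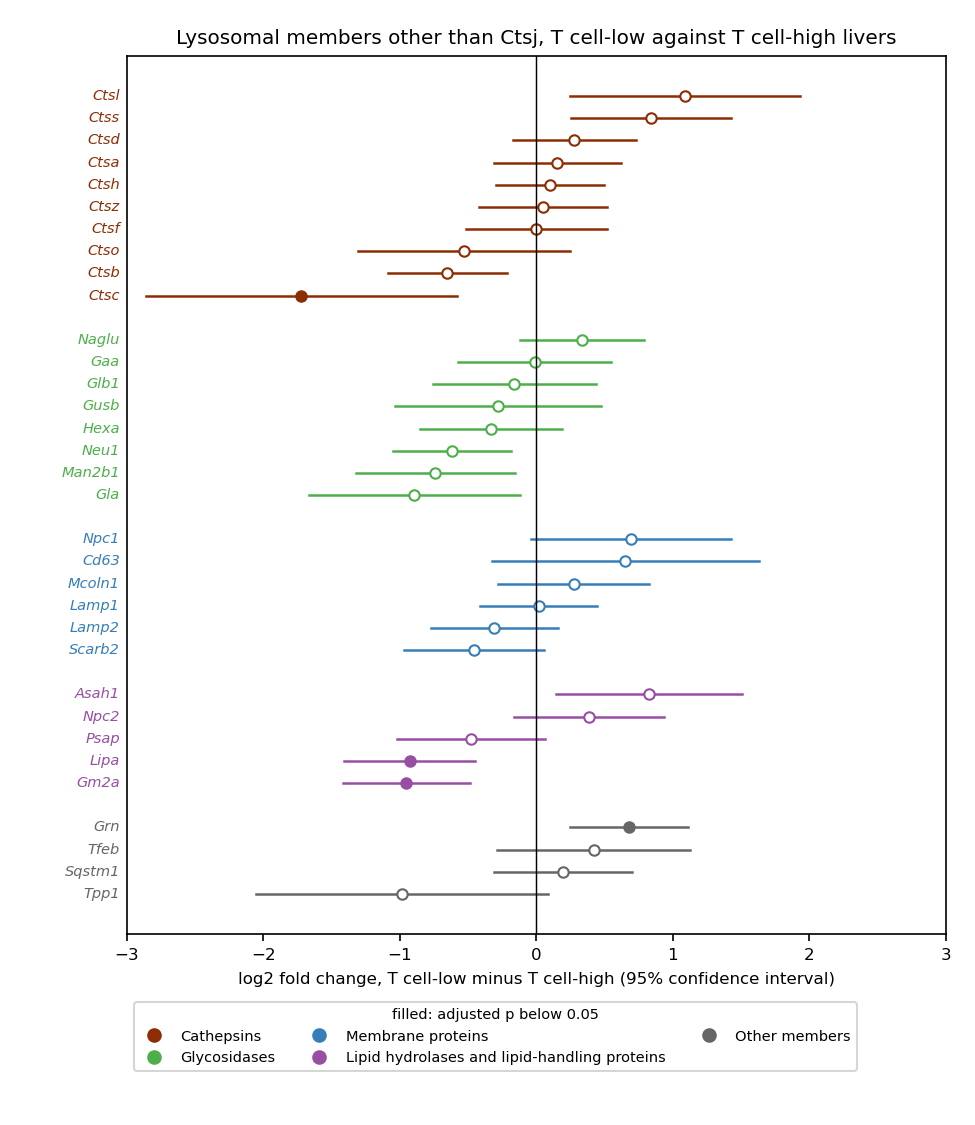
Log2 fold change of each lysosomal gene other than Ctsj, T cell-low (n = 4) minus T cell-high (n = 6), with its 95% confidence interval from limma, grouped by class and ordered within it. Filled points have adjusted p below 0.05: Ctsc at -1.72, Gm2a at -0.95 and Lipa at -0.93 lie left of 0, and Grn at 0.68 lies right of it.

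Cathepsins are the lysosomal proteases. Of the 11 here, 1 rose and 1 fell, and the 10 other than Ctsj had fold changes from -1.72 to 1.09 with a median of 0.07, so they did not move together. Ctsj (chr13:61000179-61005959 in GRCm38, minus strand, protein coding) encodes cathepsin J, a cysteine protease of a rodent gene cluster known from placenta. It had 11.7, 66.5, 75.1 and 99.8 scaled counts in T cell-low 1 to 4 and was listed at 0 in all 6 T cell-high libraries. Thus every T cell-low library was above every T cell-high one, and T cell-low 1 was the lowest of the 4. It rose by the test (adjusted p = 0.00331), having passed the filter on low values only through the T cell-low libraries. With T cell-high livers listed at 0, no fold is stated. Its adjusted p was 0.0979 with T cell-high 1, 3, 5 and 6 as a covariate. That covariate cannot change the fold change of a gene listed at 0 in all T cell-high libraries. Only the SE grew, from 0.72 to 0.98.

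Ctsc (chr7:88278085-88310888, plus strand) encodes cathepsin C, the dipeptidyl peptidase that activates the serine proteases of neutrophils and other leukocytes. Its scaled counts were 875, 93.7, 315 and 79.8 in T cell-low 1 to 4, against 525 to 837 with a median of 732 in T cell-high livers. T cell-low 2, 3 and 4 lay below all T cell-high libraries, while T cell-low 1 lay above them all, so the groups overlapped. The mean was 341 ± 372 in T cell-low livers (SD, n = 4) and 713 ± 103 in T cell-high livers (SD, n = 6), a fold change of -1.72 on the log2 scale (SE 0.53, adjusted p = 0.0493). The call rests on many libraries at once. It was kept without T cell-low 1 (adjusted p = 0.00067) or T cell-high 2 (0.0421), and was lost on leaving out any other single library (0.0681 to 0.167) and without T cell-high 1, 3, 5 and 6, where the fold change was -1.52. Genes listed as neutrophil markers mostly moved the other way. Of 13 listed, 6 were tested and 5 rose (S100a8, S100a9, Ngp, Lcn2 and Retnlg). The other tested marker was at -0.25, and 7 were below the filter. The sum over the list was 1298 to 3086 in T cell-low livers, against 105 to 1014 in T cell-high libraries. Bulk RNA does not show which cells made these transcripts, Lcn2 included. The part of neutrophils in the values of Ctsc was not tested.

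Ctsb, the abundant cysteine protease cathepsin B, fell just short of the threshold. Its scaled counts were 2054, 1098, 1541 and 1287 in T cell-low 1 to 4, against 1958 to 2773 with a median of 2177 in T cell-high livers. Only T cell-low 1 reached into the T cell-high range. The log2 fold change was -0.65 (SE 0.20, adjusted p = 0.0501), and the test was passed under 7 of 21 alternatives. These were TMM factors (0.0488), equal totals (0.0369), a minimum mean of 50 (0.0454), a pseudocount of 5 (0.0487), library weights (0.0151), and leaving out T cell-low 1 (0.00611) or T cell-high 2 (0.0371). Ctss and Ctsl, the cysteine proteases that trim the class II invariant chain in different antigen-presenting cells, had the highest fold changes of the cathepsins other than Ctsj. Ctss, cathepsin S, had 1366, 1070.5, 1964 and 1656 scaled counts in T cell-low livers, against 460 to 1241 with a median of 855 in T cell-high livers (0.84, SE 0.27, adjusted p = 0.0563). Of the T cell-low libraries, T cell-low 2 alone was below the highest T cell-high library. Ctss missed the threshold, and passed it without T cell-low 1 (0.0397), T cell-high 2 (0.0396) or T cell-high 4 (0.0452). Ctsl (chr13:64359337-64370890, minus strand), cathepsin L, had 2450, 5521, 2127 and 6512 scaled counts in T cell-low 1 to 4, against 828 to 2763 with a median of 2085 in T cell-high livers. The Ctsl window shown above lies inside this span, downstream of its outermost start. Only T cell-low 2 and 4 were above all T cell-high libraries, and its fold change of 1.09 had an SE of 0.39 (adjusted p = 0.0759, and 0.0312 without T cell-low 1).

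The other 6 cathepsins had fold changes from -0.53 (Ctso) to 0.28 (Ctsd), and 0 of them had an unadjusted p below 0.05. Ctsd, the main aspartic protease of lysosomes, had 3373, 5535, 4466 and 3818 scaled counts in T cell-low livers, against 2733 to 4331 with a median of 3683 in T cell-high livers, and the groups overlapped. For the aminopeptidase Ctsh, 2827 ± 126 scaled counts in T cell-low stood beside 2678 ± 523 in T cell-high livers (0.10, 95% interval -0.29 to 0.50). Ctsa, a carboxypeptidase that also shields the sialidase Neu1, had a fold change of 0.15 with an interval of -0.31 to 0.62. Ctsz was at 0.05 and Ctsf at 0.00, and both, with Ctsh, were below 0 when libraries were rescaled to equal totals. The summed scaled counts of the 11 cathepsins were 14288 to 18645 in T cell-low livers, against 12119 to 16434 in T cell-high libraries.

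**Figure D2:**
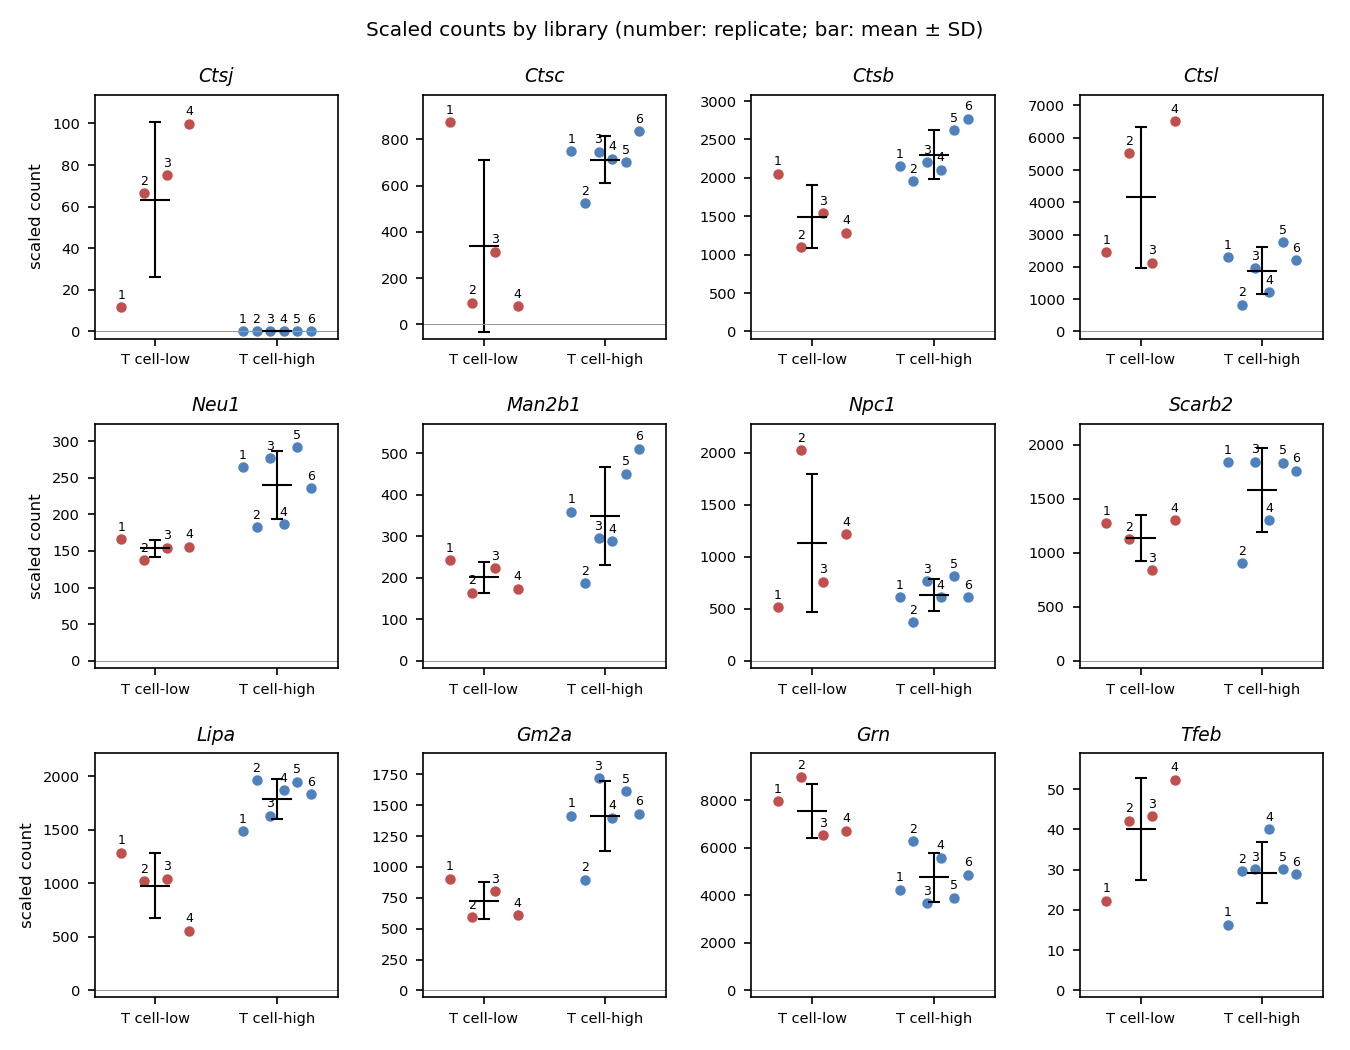
Scaled counts of 12 members in each library, T cell-low left and T cell-high right, with the replicate number beside each point and the mean ± SD as a bar (n = 4 and 6). Ctsj is at 0 in all T cell-high livers, and T cell-low 1, at 875 for Ctsc and 2054 for Ctsb, lies with the T cell-high libraries for these genes.

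Glycosidases remove sugars from glycoproteins, glycolipids and glycogen, and the loss of each causes a storage disease. Of the 8, 0 passed the test and 3 had an unadjusted p below 0.05, beside 3830 of the 11110 genes tested. Their median fold change was -0.30, and 7 of 8 were negative, from -0.89 to 0.33. Neu1, the lysosomal sialidase, had 166, 137, 155 and 156 scaled counts in T cell-low livers, against 183 to 292 with a median of 250 in T cell-high livers. The groups did not overlap, as for 7.39% of all genes tested, yet the fold change of -0.62 (SE 0.20) missed the threshold (adjusted p = 0.0565, and 0.0351 without T cell-low 1 or 0.0327 without T cell-high 2). Man2b1, the acid alpha-mannosidase, had 242, 164, 223 and 173 scaled counts in T cell-low livers, against 187 to 510 with a median of 327 in T cell-high livers. T cell-high 2, at 187, was the only T cell-high library inside the T cell-low range, and the fold change was -0.74 (SE 0.27, adjusted p = 0.0814, and 0.0444 without T cell-low 1 or 0.0244 without T cell-high 2).

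Gla, the alpha-galactosidase lost in Fabry disease, had 49.8, 15.8, 39.3 and 17.8 scaled counts in T cell-low 1 to 4, against 41.3 to 75 with a median of 47.7 in T cell-high livers (-0.89, SE 0.36, adjusted p = 0.101, and 0.0233 without T cell-low 1). T cell-low 2 and 4 were well below the rest. Naglu, which acts on heparan sulfate, was the 1 glycosidase with a positive fold change (0.33, SE 0.21, adjusted p = 0.272). Gaa, the glycogen-degrading alpha-glucosidase, averaged 269 ± 82.9 scaled counts in T cell-low livers, against 270 ± 77.0 in T cell-high livers, with an interval of -0.57 to 0.55 for the fold change of -0.01. Hexa, Gusb and Glb1, which act on gangliosides, glucuronides and beta-galactosides, had fold changes of -0.33, -0.28 and -0.16, with adjusted p from 0.342 to 0.703. Without T cell-high 1, 3, 5 and 6 the sign turned for Gusb (0.55), Gaa (0.24) and Glb1 (0.11).

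None of the 6 membrane proteins passed the test, and 0 had an unadjusted p below 0.05; the fold changes ran from -0.45 to 0.69 with a median of 0.15. Npc1, the transporter that moves cholesterol out of the lysosome, had 519, 2027, 761 and 1219 scaled counts in T cell-low 1 to 4, against 370 to 816 with a median of 614 in T cell-high livers. Only T cell-low 2 and 4 were above all T cell-high libraries (0.69, SE 0.34, adjusted p = 0.165, and 0.0259 without T cell-low 1). Scarb2, the receptor that brings glucocerebrosidase to the lysosome, had 1275, 1127, 836 and 1302 scaled counts in T cell-low livers, against 906 to 1842 with a median of 1798 in T cell-high livers (-0.45, SE 0.24, adjusted p = 0.190, and 0.0473 without T cell-high 2). T cell-high 2 and 4 lay among the T cell-low libraries, and without T cell-high 1, 3, 5 and 6 the fold change was 0.04.

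Lamp1 and Lamp2 are the main glycoproteins of the lysosomal membrane. Lamp1, with 4 copies of CACGTG in the window above, averaged 4986 ± 816 scaled counts in T cell-low livers, against 4951 ± 998 in T cell-high livers. Its log2 fold change was 0.02, with an interval of -0.41 to 0.45 that excludes a doubling either way. For Lamp2 the fold change was -0.31 (SE 0.21, adjusted p = 0.320), with T cell-low 2 and 4 at 1274 and 1462 scaled counts, below the other 8 libraries. The calcium channel Mcoln1 and the tetraspanin Cd63 were at 0.27 and 0.65, with adjusted p of 0.467 and 0.315. Cd63 is uncertain, since 38.6% of the 50-base words at its 3′ end also occur in other genes, most often the pseudogene Cd63-ps. For all other members that share was under 2%.

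Set side by side, the 11 cathepsins had a median fold change of 0.10 and the 14 glycosidases and membrane proteins a median of -0.22. Called were 2 (18.2%) and 0 members, beside 12.8% of all genes tested. Without Ctsj the cathepsins had a median of 0.07 and 1 call among 10. This is a description, and the difference was not tested. With libraries rescaled to equal totals, which lowered the median of all genes to -0.12, the medians were -0.02 and -0.34. Without T cell-high 1, 3, 5 and 6 they were 0.28 and 0.08, so the sign of the second turned with those 4 libraries. By library, the class median of the log2 distance to the mean of T cell-high livers was -0.05, 0.26, 0.06 and 0.36 for cathepsins in T cell-low 1 to 4, against -0.30 to 0.24 in T cell-high libraries. For glycosidases alone it was -0.20, -0.64, -0.41 and -0.33 in T cell-low 1 to 4, against -0.40 to 0.35 in T cell-high libraries. For membrane proteins alone it was 0.07, -0.11, 0.19 and 0.20 in T cell-low 1 to 4, against -0.36 to 0.21 in T cell-high libraries. The pooled median of -0.22 thus joins glycosidases at -0.30 and membrane proteins at 0.15. The 3 classes each overlapped between the groups, and T cell-high 2 was the lowest T cell-high library in each.

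**Figure D3:**
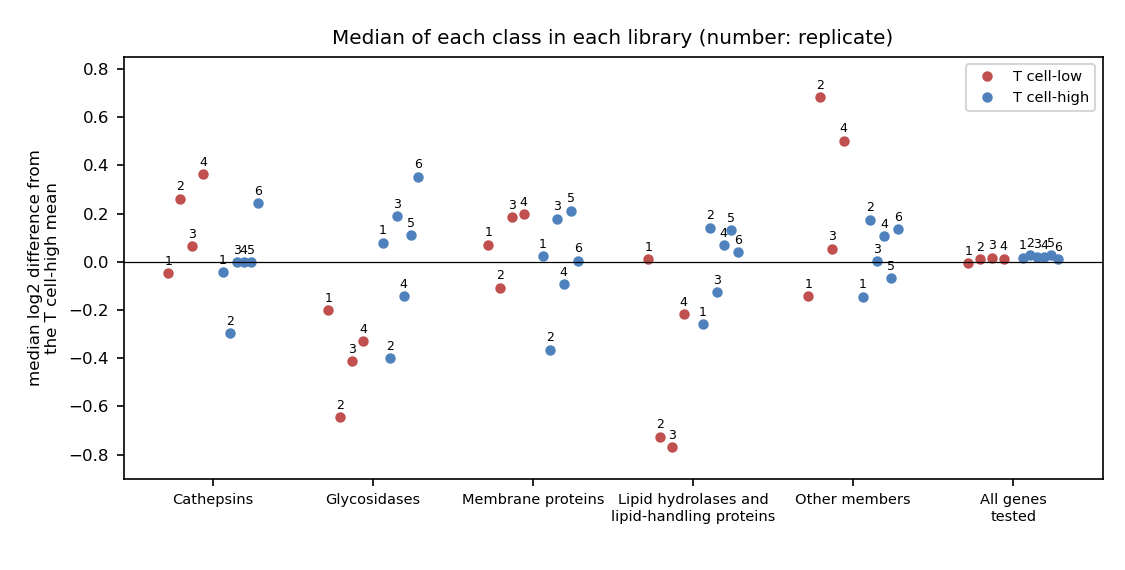
Median over the genes of each class of the log2 distance to the mean of T cell-high livers, by library, T cell-low left and T cell-high right of each pair, with replicate numbers. Glycosidases lie at or below -0.20 in the 4 T cell-low libraries, but T cell-high 2 and 4 are also below 0, and the medians of all genes tested stay close to 0.

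Of the 3 members that fell, 2 were in the class of 5 lipid hydrolases and lipid-handling proteins, beside 7.39% of all genes tested called lower. That class leaves out Npc1, which was counted with the membrane proteins, and a count this small is only a description. Lipa (chr19:34492318-34527474, minus strand), the acid lipase that frees cholesterol and fatty acids from esters taken up with lipoproteins, had 1285, 1021, 1044 and 557 scaled counts in T cell-low livers. Its T cell-high values were 1486 to 1962 with a median of 1849, so the groups did not overlap. Means of 977 ± 304 in T cell-low livers and 1787 ± 189 in T cell-high livers put the log2 fold change at -0.93 (SE 0.22, adjusted p = 0.0252). The fold change was -1.03 without T cell-high 1, 3, 5 and 6, where no gene was called. The call was lost without T cell-low 2 (adjusted p = 0.0749), T cell-low 4 (0.0691), T cell-high 3 (0.0525), T cell-high 5 (0.0575) or T cell-high 6 (0.0539).

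Gm2a (chr11:55098115-55113029, plus strand), the activator that lifts GM2 ganglioside out of the membrane for hexosaminidase, had 904, 594, 805 and 608 scaled counts in T cell-low livers. T cell-high livers had 898 to 1721 with a median of 1423, and T cell-high 2, at 898, was just inside the T cell-low range. Means of 728 ± 152 in T cell-low livers and 1413 ± 283 in T cell-high livers put the log2 fold change at -0.95 (SE 0.21, adjusted p = 0.0208). The fold change was -0.65 without T cell-high 1, 3, 5 and 6. The call was lost without T cell-low 2 (adjusted p = 0.0795), T cell-low 4 (0.0724), T cell-high 3 (0.0525) or T cell-high 5 (0.0510). Hexa, the enzyme subunit Gm2a serves, was not called.

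The other 3 lipid members missed the threshold. Acid ceramidase, Asah1, had 132, 147, 294 and 149 scaled counts in T cell-low livers, against 69.3 to 170 with a median of 83.2 in T cell-high livers (0.83, SE 0.32, adjusted p = 0.0903, and 0.0491 without T cell-low 1 or 0.0354 without T cell-high 2). The cholesterol carrier Npc2, which hands its load to Npc1, was at 0.39 (SE 0.25), and at -0.14 without T cell-high 1, 3, 5 and 6. Psap, the precursor of the saposins that help degrade sphingolipids, was at -0.48 (SE 0.25), with 1979 ± 610 scaled counts in T cell-low livers, against 2736 ± 731 in T cell-high livers. The 5 genes thus lay on both sides of 0.

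Grn (chr11:102430315-102437048, plus strand) encodes progranulin, a secreted precursor that the lysosome splits into granulins and that macrophages make in quantity. It had 7964, 8969, 6525 and 6718 scaled counts in T cell-low livers, against 3667 to 6279 with a median of 4551 in T cell-high livers. The groups did not overlap, and T cell-high 2 and 4 were the nearest of the T cell-high libraries. Means of 7544 ± 1144 in T cell-low livers and 4756 ± 1020 in T cell-high livers put the log2 fold change at 0.68 (SE 0.20, adjusted p = 0.0446), which was 0.34 without T cell-high 1, 3, 5 and 6. The call was kept without T cell-low 1 (adjusted p = 0.0349) or T cell-high 2 (0.0218) and lost without any other single library (0.0504 to 0.145). With equal totals it was also lost (0.0853). Of 16 markers of Kupffer cells and macrophages, 0 passed the test, 1 had an unadjusted p below 0.05 and none was listed at 0; their sum was 7801 to 12377 in T cell-low livers, against 4650 to 15075 in T cell-high libraries.

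Tfeb itself was low in scaled counts, at 22.3, 42.2, 43.2 and 52.4 in T cell-low 1 to 4, against 16.3 to 40.1 with a median of 29.9 in T cell-high livers. T cell-low 1 was the lowest T cell-low library and T cell-high 1 the lowest T cell-high one, and the groups overlapped (0.42, SE 0.33, adjusted p = 0.371). The 10 members with CACGTG in a promoter window had a median fold change of 0.09 and 0 calls. The 20 members with windows that lack it had a median of -0.32 and 5 calls, 1 of them Ctsj. Beside the 12.8% of all genes called, numbers this small are a description and nothing is read from them about the motif. Sqstm1, the autophagy receptor p62, had 2535, 4862, 2149 and 3885 scaled counts in T cell-low 1 to 4, against 2376 to 3402 with a median of 2666 in T cell-high livers, and T cell-low 2 and 4 were the highest (0.19, SE 0.23, adjusted p = 0.577). The peptidase Tpp1 had 189, 58.2, 78.1 and 143 scaled counts in T cell-low livers, against 59.6 in T cell-high 2 to 400.4 in T cell-high 5 with a median of 282 in T cell-high livers, whose SD was the larger, at 59.9 in T cell-low livers and 124 in T cell-high livers (-0.98, SE 0.50, adjusted p = 0.176, and 0.0306 without T cell-high 2). Its fold change was 0.20 without T cell-high 1, 3, 5 and 6.

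Arrangements of libraries recurred across the members, noticed in the values and given with no test. T cell-low 2 and 4 lay beyond all other 8 libraries in 11 members, as in 30.2% of all genes tested: above them for Ctsl, Npc1, Mcoln1 and Sqstm1, and below them for Ctsb, Ctsc, Gla, Man2b1, Lamp2, Lipa and Gm2a. T cell-low 2, 3 and 4 lay beyond all other 7 libraries in 8 members, beside 25.1% of all genes, above for Ctsj and Tfeb and below for Ctsb, Ctsc, Gla, Neu1, Lipa and Gm2a. T cell-high 1, 3, 5 and 6 lay beyond all other 6 libraries in 11 members too, beside 18.0% of all genes. Those 4 were above for Ctsb, Neu1, Gusb, Man2b1, Scarb2, Gm2a and Tpp1, and below for Ctss, Asah1, Npc2 and Grn. Leaving out T cell-low 1 raised the members called to 13, with Ctsb, Ctsl, Ctss, Gla, Neu1, Man2b1, Npc1 and Asah1 added, and the genes called to 3633. Leaving out T cell-high 2 raised the members called to 12, and T cell-low 2, T cell-low 4, T cell-high 3 or T cell-high 5 left 1, Ctsj. The count of all genes called also moved with the library left out, so these swings are not read as particular to the members.

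**Figure D4:**
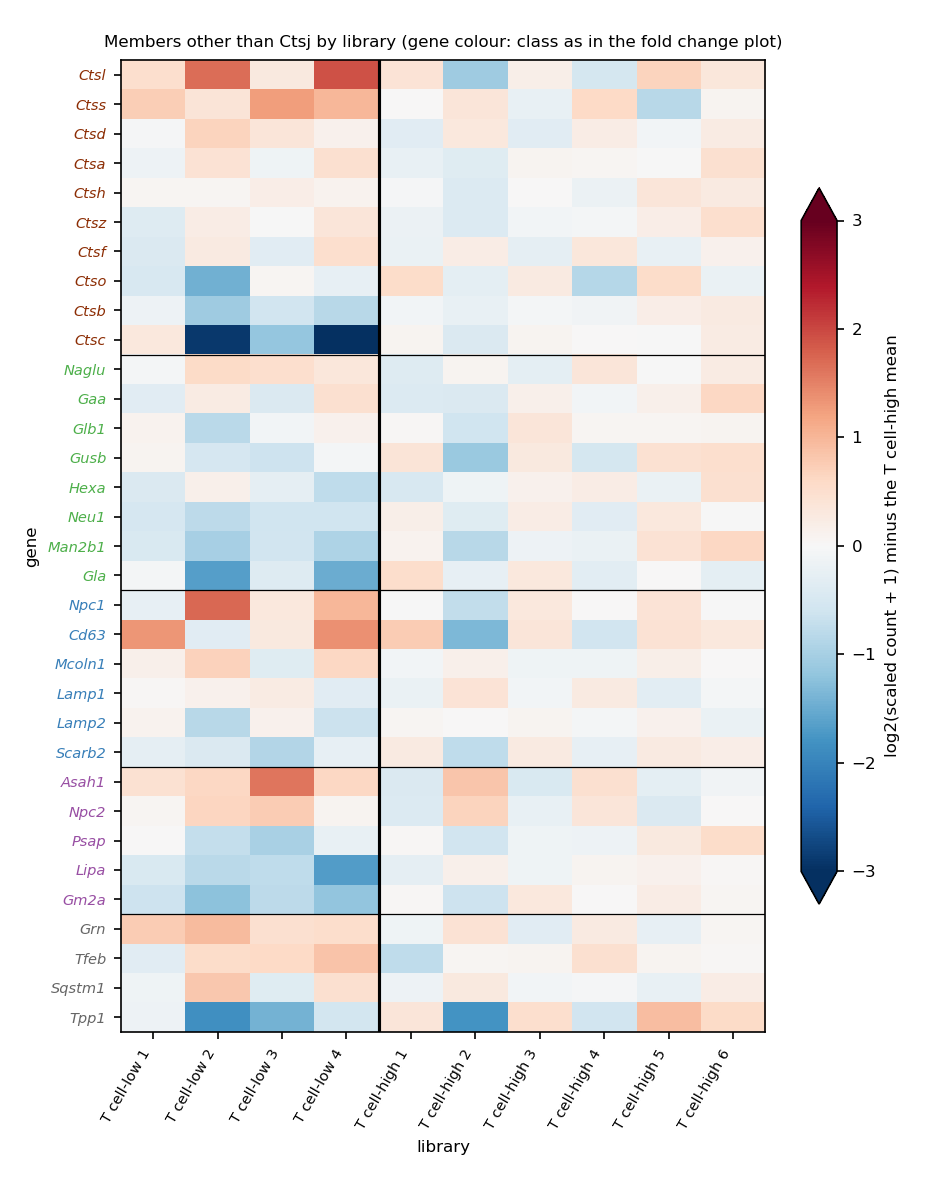
Each lysosomal gene other than Ctsj (rows, coloured and grouped by class) in each library (columns, T cell-low left of the black line, T cell-high right). Colour is log2(scaled count + 1) minus the gene's T cell-high mean, red above and blue below. T cell-low 2 and 4 hold the strongest colours, with Ctsc at 93.7 and 79.8 scaled counts, while T cell-low 1 is pale in many rows.

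Genes that work with these members were read from 7 lists. Of their 169 genes, 152 were tested and 8 called (5.26%, beside 12.8% of all genes tested), 4 higher and 4 lower, with a median fold change of -0.06. An unadjusted p below 0.05 was found for 41 of the 152, beside 3830 of the 11110 genes tested. In the list of lysosomal hydrolases outside the module 1 of 30 tested genes rose, and it is not itself a hydrolase. Hgsnat, the membrane acetyltransferase of heparan sulfate breakdown, had 426, 1244, 883 and 899 scaled counts in T cell-low livers, against 220 to 335 with a median of 301 in T cell-high livers, without overlap (1.48, SE 0.27, adjusted p = 0.0120). Naglu, which acts next in that pathway, was not called. Among 20 other lysosomal membrane proteins 1 fell, Laptm4a, with 1511 ± 372 scaled counts in T cell-low livers, against 2442 ± 304 in T cell-high livers (-0.71, SE 0.19, adjusted p = 0.0329).

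Of the 17 V-ATPase subunits 0 passed, 4 had an unadjusted p below 0.05 (3830 of the 11110 genes tested did) and the median was 0.00. The proton channel subunit Atp6v0c had 2165 ± 259 scaled counts in T cell-low livers, against 2081 ± 214 in T cell-high livers. In the sorting machinery 1 of 30 fell: Ap3m1, a subunit of the adaptor that routes membrane proteins to lysosomes, at 115 ± 34.5 in T cell-low livers, against 246 ± 76.8 in T cell-high livers (-1.07, SE 0.29, adjusted p = 0.0351). Its counts are uncertain, since 40.3% of the 50-base words at its 3′ end also occur in other genes, most often the pseudogene Ap3m1-ps. The same holds for Atp6v0c (27.6%, most often Atp6v0c-ps2). Of 11 protease inhibitors 5 were tested and 1 rose, Serpina3n, which is also an acute-phase plasma protein. Its scaled counts were 4429, 6703, 4723 and 20310.1 in T cell-low livers, against 660 to 3993 with a median of 1851 in T cell-high livers (2.08, SE 0.48, adjusted p = 0.0230).

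In the list of TFEB relatives and mTORC1 at the lysosome, 1 of 20 tested fell. Lamtor4, a subunit of the Ragulator scaffold that holds mTORC1 there, had 381 ± 166 scaled counts in T cell-low livers, against 745 ± 163 in T cell-high livers (-1.03, SE 0.26, adjusted p = 0.0294). Autophagy genes had 2 rises and 1 fall among 30. Ulk2, a kinase that starts autophagy, had 98.4 ± 51.4 scaled counts in T cell-low livers, against 244 ± 63.2 in T cell-high livers (-1.39, SE 0.31, adjusted p = 0.0202). Wipi1, which binds phosphoinositides on forming autophagosomes, had 51.4, 751, 175 and 275 scaled counts in T cell-low 1 to 4, against 42.3 to 68.7 in T cell-high livers, so T cell-low 1 lay among the T cell-high libraries (1.88, SE 0.53, adjusted p = 0.0401). Optn, a receptor for cargo, had 656 ± 154 scaled counts in T cell-low livers, against 406 ± 46.6 in T cell-high livers, without overlap (0.67, SE 0.19, adjusted p = 0.0431). Without T cell-high 1, 3, 5 and 6, 0 genes of the lists were called, with 8 at an unadjusted p below 0.05. Leaving out single libraries changed these 8 calls to 35 where T cell-low 1 was dropped, to 19 for T cell-high 2, to 7 for T cell-high 4, and to between 1 and 3 for any other.

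**Figure D5:**
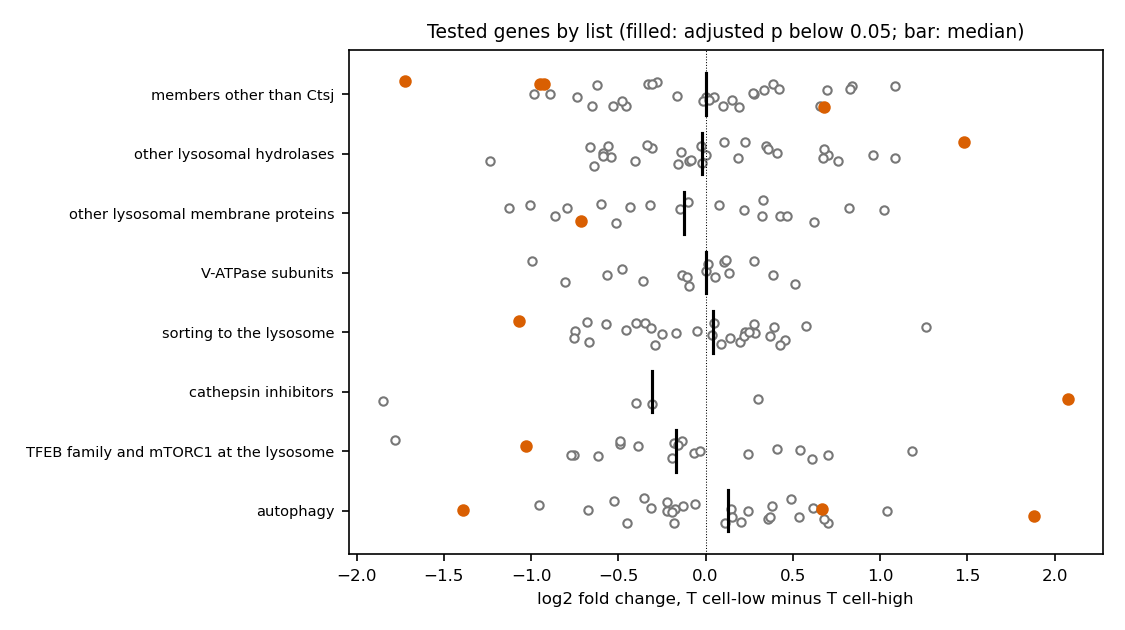
Log2 fold changes, T cell-low minus T cell-high, of the members other than Ctsj and of the tested genes of 7 related lists (1 point per gene, n = 4 and 6 libraries). Filled points have adjusted p below 0.05 and black bars are medians, which lie between -0.31 for the 5 cathepsin inhibitors and 0.13 for autophagy.

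Other cell types were also read from marker lists. Called markers were Apoa1 (higher) of 11 for hepatocytes, Lyve1 and Stab2 (higher) and Dnase1l3 (lower) of 10 for sinusoidal endothelium, Slc4a1 and Hba-a2 (higher) of 6 for erythroid cells, and Msln (higher) of 4 for ductal epithelium. Hba-a2 is uncertain, since 83.25% of its 3′ words also occur in other genes, most often Hba-a1. For stellate cells 0 of 10 and for T, NK and B cells 0 of 4 were called. These counts are of tested markers. Not tested were 9 of the 13 listed T, NK and B markers, 5 of the 9 ductal ones and 2 of the 8 erythroid ones, so most lymphocyte markers could not be read. Summed erythroid markers were 43163 to 98228 in T cell-low livers, against 19681 to 51936 in T cell-high libraries, and summed ductal markers 317 to 478 in T cell-low livers, against 144 to 259 in T cell-high livers. The part of these cells in the members' values was not tested.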

How the data were processed

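Total liver RNA was made into libraries with the QuantSeq 3′ FWD kit, per the labels' protocols, and STAR, DESeq2 and mm10 are named in the submitters' processing notes, without versions. No source used here gives the read counter or the annotation. Deposited by the authors was a signal, gene counts scaled between libraries; the values are not whole, whole reads could not be recovered, and the depth in reads is therefore unknown, so no counting interval is given.

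Groups came from the sample titles. Genes with a mean of at least 10 were tested as log2(value + 1) with limma 3.58.1 (variance trend, group as the only term) in R 4.3.3, which the design gave for scaled values. A fold change on this scale understates the change of low genes. Members, classes, lists and alternatives were chosen with earlier results of these data known. Named were all members, up to 3 called genes of each list (the one of highest mean where none was called) and called markers. Alternatives were TMM factors, equal totals, filters, pseudocounts 0.5 and 5, the robust option, library weights, a replicate block and leaving out each library; those on T cell-high 1, 3, 5 and 6, and all those on the pathway lists, were added after seeing the data. Gene positions are of GENCODE vM21 (GRCm38). Promoter windows are from RefSeq (GRCm38.p6). The test was checked on simulated data with independent errors. That check does not cover libraries that vary together, as some here did.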

Additional observations from a re-analysis of the deposited data

Results flagged for a closer look

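Of 68 sets of values, 1 for each member in each group, 1 held a library far from the rest. For Asah1, the acid ceramidase, T cell-low 3 had 294 scaled counts, while the other T cell-low libraries had 132, 147 and 149. The gap to the next library was 0.895 of the range of the group. Chance alone marks about 1 in 20 such sets.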

How the results depend on the processing

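Against 5 members, 8 genes of the pathway lists and 1420 genes in all, library weights gave 13, 31 and 3266 calls, a replicate block 1, 2 and 193, and T cell-high 1, 3, 5 and 6 as a covariate or left out together 0, 0 and 0 (6 and 4 members, and 1788 and 1027 genes, at an unadjusted p below 0.05). By construction both of these last fits give the fold changes of T cell-low over T cell-high 2 and 4, and both have less power than the main fit. With no filter 3 members were called, Ctsc and Grn being lost. Other settings left each of these counts within 1.5 times. With equal totals the calls were 421 higher and 1068 lower, against 599 and 821. Leaving out 1 library gave 1 to 13 members, 1 to 35 pathway genes and 109 to 3633 genes. For members the counts were 13, 1, 3 and 1 without T cell-low 1 to 4 and 3, 12, 1, 4, 1 and 2 without T cell-high 1 to 6. The cathepsin median then ran from 0.04 to 0.19 and that of glycosidases and membrane proteins from -0.29 to -0.11; the second was 0.0767 with T cell-high 1, 3, 5 and 6 as a covariate or left out. Ctsj, which passed the filter only through the T cell-low libraries, was called under 18 of 20 alternatives. Gm2a was called under 14, Lipa 13, Grn 8 and Ctsc 7 of 21.

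Some fold changes turned sign. With TMM factors Ctsf was -0.0255 and Lamp1 -0.00931. With equal totals Ctsf was -0.12, Ctsh -0.0200, Ctsz -0.0724 and Lamp1 -0.10. Gaa was 0.00521 with library weights. With the replicate block Ctsf was -0.0220, Gaa 0.18 and Lamp1 -0.0793. With the 4 libraries as a covariate or left out, Ctsf was -0.27, Ctso 0.0449, Gaa 0.24, Glb1 0.11, Gusb 0.55, Lamp1 -0.32, Scarb2 0.0427, Npc2 -0.14 and Tpp1 0.20. Leaving out 1 library, Ctsf ran from -0.17 to 0.15, Gaa from -0.18 to 0.13, Lamp1 from -0.0568 to 0.14, Ctsz from -0.0576 to 0.19, Glb1 from -0.28 to 0.0535 and Sqstm1 from -0.00932 to 0.38. The cause was not tested.

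Under the replicate block, Ctsj was kept (adjusted p = 0.0361) and Ctsc, Lipa, Gm2a and Grn were not called (0.0746 to 0.145). Numbers 5 and 6 occur only in T cell-high, so T cell-high 5 and 6 add nothing to that contrast. With the added block terms the fit also has less power. Deviations of same-numbered libraries correlated at 0.10, 0.21, -0.10 and -0.15 for numbers 1 to 4. The labels do not say that same-numbered libraries were paired, and these correlations cannot exclude it. A minimum mean of 50 gives no value for Ctsj, Gla and Tfeb.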

Other observations

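Ctsj belongs to a group of placental cathepsin genes on chromosome 13. The 7 others in the table, Cts3, Cts6, Cts7, Cts8, Ctsm, Ctsq and Ctsr, were listed at 0 in every library, as were the trophoblast genes Tpbpa and Tpbpb. Of the 9 genes listed at 0 in all T cell-high and above 0 in all T cell-low libraries, Ctsj was the 1 that passed the filter; the reverse arrangement held for 10 genes, of which 0 passed.

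Ctla2a (chr13:60934155-60936625 in GRCm38), whose product resembles the inhibitory propeptide of cathepsins, was looked at after its values were seen. It had 211, 469, 578 and 540 scaled counts in T cell-low 1 to 4, against 82.9 to 184 with a median of 89.8 in T cell-high livers, without overlap (log2 fold change 2.04, SE 0.32, adjusted p = 0.00836 by limma). At its 3′ end 22.1% of the 50-base words also occur in other genes, most often Gm49391, so its counts are uncertain. Ctla2b, its close relative, had 19.5 ± 6.08 in T cell-low livers, against 26.7 ± 5.25 in T cell-high livers and was not called. For Ctla2b 86.0% of such words occur in other genes, again most often Gm49391.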
